A study of Homo sapiens with 8 samples.

Results

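The mitochondrial ribosomal protein (MRP) mRNAs were the entries of the deposited expression table whose symbol is MRPL or MRPS followed by a number and, in some, a letter from A to C. The rule found 77 of 26902 entries, all nuclear genes. Of these, 50 encode proteins of the large subunit, 26 encode proteins of the small subunit, and MRPS36, now named KGD4, encodes a subunit of the oxoglutarate dehydrogenase complex and not of the ribosome. MRPS30 and MRPS18A carry small-subunit names and were counted with the large subunit, where their proteins lie.

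The cells were U2OS, a human osteosarcoma line, that overexpressed QKI7 or carried an empty vector. QKI7 is an isoform of the RNA-binding protein Quaking. Cells of both constructs were given 0.5 mM sodium arsenite, an agent of oxidative stress, for 1 h, so the comparison of QKI7 with vector was made within stressed cells, and unstressed cells were not analysed here. There were 4 groups of 2 libraries each: QKI7 footprints, QKI7 inputs, vector footprints and vector inputs. Inputs were RNA depleted of ribosomal RNA, and footprints were ribosome-protected fragments of 17 to 34 nucleotides. Whether the paired libraries of each group are independent cultures is unstated, so p-values reflect variation among these libraries alone, and that variation may be technical only. In such bulk samples, fewer cells with an mRNA and less of it per cell cannot be told apart.

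Mitochondria have ribosomes of their own, which translate the few mRNAs of the mitochondrial genome, nearly all of them for subunits of the respiratory chain. The RNAs of these ribosomes are transcribed in mitochondria, but all their proteins are encoded in the nucleus, made by cytosolic ribosomes and imported. Footprints on MRP mRNAs in this assay are therefore those of cytosolic ribosomes making mitoribosome parts. Some MRPs have bacterial homologues and others were gained in mitochondria.

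The deposited values were TPM (a length-normalised share of all transcripts in a library), with no read counts, so the depth is unknown and no counting interval can be given. Protein-coding entries took 4.25% to 4.53% of TPM in QKI7 inputs and 3.73% to 4.01% in vector inputs, against 0.688% to 0.697% in QKI7 footprints and 0.711% to 0.712% in vector footprints. Levels below are deposited TPM unless called scaled TPM, which are protein-coding TPM rescaled to a common sum and divided by a median-of-ratios factor per library. QKI had 1749 and 1580 TPM in QKI7 inputs, against 3.01 and 3.45 TPM in vector inputs, so the construct labels held. QKI footprints were at 27 and 28.1 TPM in QKI7 libraries, against 0.57 and 0.66 TPM in vector libraries. Among markers of mesenchymal and bone cells, VIM (75 to 102 TPM), SPARC and COL1A1 were present in the inputs. COL1A2 and SP7 reached at most 0.07 and 0.06 TPM, and RUNX2, ALPL and BGLAP at most 0.72, 0.26 and 0.45 TPM. Markers of blood, epithelium and neurons reached at most 0.6 TPM, close to the levels of RUNX2, ALPL and BGLAP.

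Promoters are shown for 4 MRP genes described below, because genes of this family are known for short promoters with sites for ETS-family factors such as GABP and for YY1. The windows are the 150 bases before the RefSeq start of each gene, from GRCh38.p14, on the gene's strand and 5′ to 3′. Capitals mark CCGGAAG, an ETS core, or its reverse complement CTTCCGG. MRPL20 lies on chr1:1407294-1407443 (minus strand), MRPL51 on chr12:6493263-6493412 (minus strand), MRPS34 on chr16:1773135-1773284 (minus strand) and MRPL18 on chr6:159789662-159789811 (plus strand).
MRPL20: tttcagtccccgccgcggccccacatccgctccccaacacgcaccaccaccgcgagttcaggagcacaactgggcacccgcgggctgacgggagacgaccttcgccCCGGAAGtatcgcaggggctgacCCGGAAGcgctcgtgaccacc
MRPL51: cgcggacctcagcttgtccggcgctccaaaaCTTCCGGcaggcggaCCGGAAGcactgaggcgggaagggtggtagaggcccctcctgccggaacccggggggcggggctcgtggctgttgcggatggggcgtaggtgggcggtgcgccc
MRPS34: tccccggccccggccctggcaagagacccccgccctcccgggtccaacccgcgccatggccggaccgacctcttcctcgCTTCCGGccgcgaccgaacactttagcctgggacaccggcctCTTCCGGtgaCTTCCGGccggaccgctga
MRPL18: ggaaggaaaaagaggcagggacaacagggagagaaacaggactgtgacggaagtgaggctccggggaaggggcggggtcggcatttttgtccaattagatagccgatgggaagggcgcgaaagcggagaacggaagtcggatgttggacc
The MRPL20 and MRPL51 windows each held 2 matches and the MRPS34 window held 3, whereas the MRPL18 window held none of the motifs searched. RefSeq promoter windows of 300 bases (250 before the start and 50 after) were found for 69 of the 77 members and for 15027 protein-coding entries. The 4 genes shown were picked by hand and do not stand for all members called below. MRPL36, MRPS9, MRPL49 and MRPS15, also called below between QKI7 and vector cells, each held 0 matches to CCGGAAG in these longer windows. No window was found for MRPL21, which was called as well. CCGGAAG, on either strand, stood in 40.58% of member windows and in 14.56% of all windows. It stood in 32.26% of windows of cytosolic ribosomal protein genes and in 28.36% of those of respiratory chain subunits, a list that here includes ATP synthase genes. The YY1 motif AAGATGGC, on either strand, stood in 28.99% of member windows and in 4.026% of all windows. In the same 2 families it stood in 9.677% and 16.42%, respectively. The palindromic NRF1 motif stood in 1.449% of member windows and in 1.803% of all windows. A pyrimidine tract at the start itself, the mark of cytosolic ribosomal protein genes, was found in 7.246% of members, 66.13% of cytosolic ribosomal protein genes and 4.638% of all entries. These matches are letters in a window and do not show binding.

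MRP mRNAs had low values in deposited TPM, a scale on which all protein-coding entries together took the small shares given above. Within protein-coding TPM, the 77 members (of 18772 entries) took 0.334% and 0.340% in QKI7 inputs and 0.378% and 0.366% in vector inputs. The protein-coding sum includes QKI, at 1749 and 1580 TPM in QKI7 inputs against 3.01 and 3.45 TPM in vector inputs, and shares without it were not computed. In footprints they took 0.587% and 0.613% in QKI7 libraries and 0.763% and 0.726% in vector libraries. The counts that follow are on deposited TPM and were not set against all genes. Over the 4 inputs, 45 members averaged at least 1 TPM. Over the 4 footprint libraries, 12 averaged at least 1 TPM and 68 at least 0.2 TPM. Summed over the 77 members, deposited TPM came to 151 and 144 in QKI7 inputs and to 141 and 147 in vector inputs.

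The highest input level was that of MRPS15, an RNA-binding protein of the small subunit, with 8.85 and 9.09 TPM in QKI7 inputs, against 11.1 and 12.4 TPM in vector inputs. MRPL12, which forms the stalk that recruits translation factors, had 8.22 and 8.16 TPM in QKI7 inputs, against 11.5 and 9.22 TPM in vector inputs. The ranges of these members overlapped over the 4 inputs, so their order was not resolved. MRPL33, MRPL28 and MRPS34 followed, with means of 6.20, 4.98 and 4.69 TPM, and they overlapped one another while lying below MRPS15 and MRPL12 in all inputs. MRPL28 varied least among these, between 4.84 and 5.08 TPM.

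The 5 lowest input means were those of MRPS24 (0.060 TPM), MRPS36 (0.140 TPM), MRPL57 (0.253 TPM), MRPS12 (0.283 TPM) and MRPL42 (0.355 TPM). MRPS24 was listed at 0 in both QKI7 inputs and 1 vector input, yet had 0.56 and 0.44 TPM in QKI7 footprints and 0.23 and 0.56 TPM in vector footprints. Its gene overlaps the read-through gene URGCP-MRPS24, and how reads were shared between them was not tested. MRPS12, a protein of the decoding centre, had 0.27 and 0.26 TPM in QKI7 inputs, against 0.32 and 0.28 TPM in vector inputs.

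**Figure D1:**
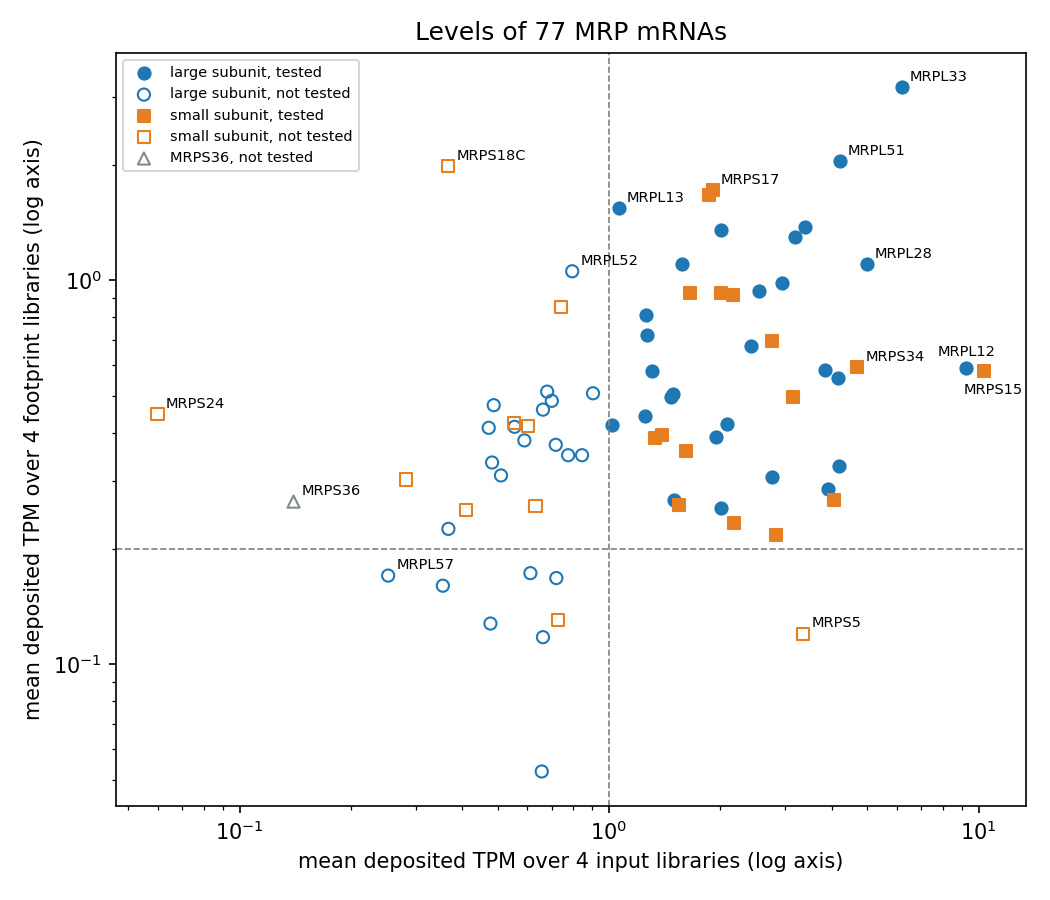
Mean deposited TPM over the 4 footprint libraries (vertical) against that over the 4 inputs (horizontal), both on log axes, for each of the 77 MRP entries; filled points were tested and dashed lines mark the minimum means of 1 TPM in inputs and 0.2 TPM in footprints. MRPS15 and MRPL12 lie farthest right, MRPL33 is highest in footprints, and MRPS18C is high in footprints while averaging 0.367 TPM in inputs.

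Tests used log2(scaled TPM + 1) in limma, fitted to all 2721 protein-coding genes that averaged at least 1 TPM over the inputs and at least 0.2 TPM over the footprints, with p-values adjusted by Benjamini-Hochberg over those genes and a threshold of 0.05. Of the 77 members, 44 were tested, 28 of the large and 16 of the small subunit. The other 33 fell below the minimum in inputs only (24), in footprints only (MRPS5) or in both (8). Replicate footprints spread more than replicate inputs: over all genes tested, the median SD within a group was 0.147 in QKI7 footprints and 0.143 in vector footprints, against 0.058 in QKI7 inputs and 0.067 in vector inputs. The fit shared 1 spread between both library types, and on simulated data, where 200 of 2721 genes were changed, 24.3% of its footprint calls were false. In the real footprints 464 genes were called higher and 372 lower, so this share need not carry over. Calls between QKI7 and vector cells are therefore set beside a second limma fit that weighted the types separately. It is called the type-weighted fit and was chosen after seeing the data. On the simulated data 9.68% of its footprint calls were false. It recovered 76% of the larger simulated footprint changes (1 on the log2 scale) and 8% of the smaller ones. The shared spread recovered 83% and 23% of these, and 86% and 13% in inputs. For footprints over input compared between constructs it recovered 20% and 2%. Members without a call may therefore have changed.

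The first comparison asked whether MRP mRNA levels differed between QKI7 and vector cells. In inputs 1 member rose, MRPL18, and 0 fell, while 1.32% of all genes tested were called higher and 5.77% lower. At an unadjusted p under 0.05 in limma, 2 members were higher and 1 lower (5.77% and 13.6% of all genes). Their median log2 difference was -0.08, beside -0.01 over all genes tested. Scaled TPM of QKI7 and vector inputs did not overlap for 22 members, of which 7 were above and 15 below in QKI7, and 29.6% and 35.5% of all genes did so.

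MRPL18, a large-subunit protein of the family that binds the smallest ribosomal RNA, had 111 and 104 scaled TPM in QKI7 inputs, against 62.7 and 63.1 in vector inputs. Both QKI7 inputs lay above both vector inputs. The log2 difference was 0.76 (SE 0.17, limma adjusted p = 0.0306, and 0.000477 in the type-weighted fit). The call was lost on leaving out any 1 of the 4 inputs and with looser minimum levels (limma adjusted p = 0.105). Its footprints were at 106 and 75.8 scaled TPM in QKI7 libraries, against 97.1 and 90.2 in vector libraries, and these overlapped.

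MRPS15 had 170.1 and 186 scaled TPM in QKI7 inputs, against 251 and 261 in vector inputs. The groups did not overlap, and the log2 difference of -0.52 (SE 0.13) missed the threshold (limma adjusted p = 0.0553, and 0.00189 in the type-weighted fit). It passed without either QKI7 footprint library (limma adjusted p = 0.0248 and 0.0255). MRPS17, a small-subunit protein that binds ribosomal RNA, had 49.4 and 43.0 scaled TPM in QKI7 inputs, against 35.3 and 29.4 in vector inputs, a log2 difference of 0.51 (SE 0.21, limma adjusted p = 0.237, and 0.0190 in the type-weighted fit). The type-weighted fit called 2 members higher (MRPL18 and MRPS17) and 4 lower (MRPS15, MRPS34, MRPL53 and MRPS7, the last 2 named after their values were seen) in inputs, while it called 8.45% of all genes higher and 16.4% lower.

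**Figure D2:**
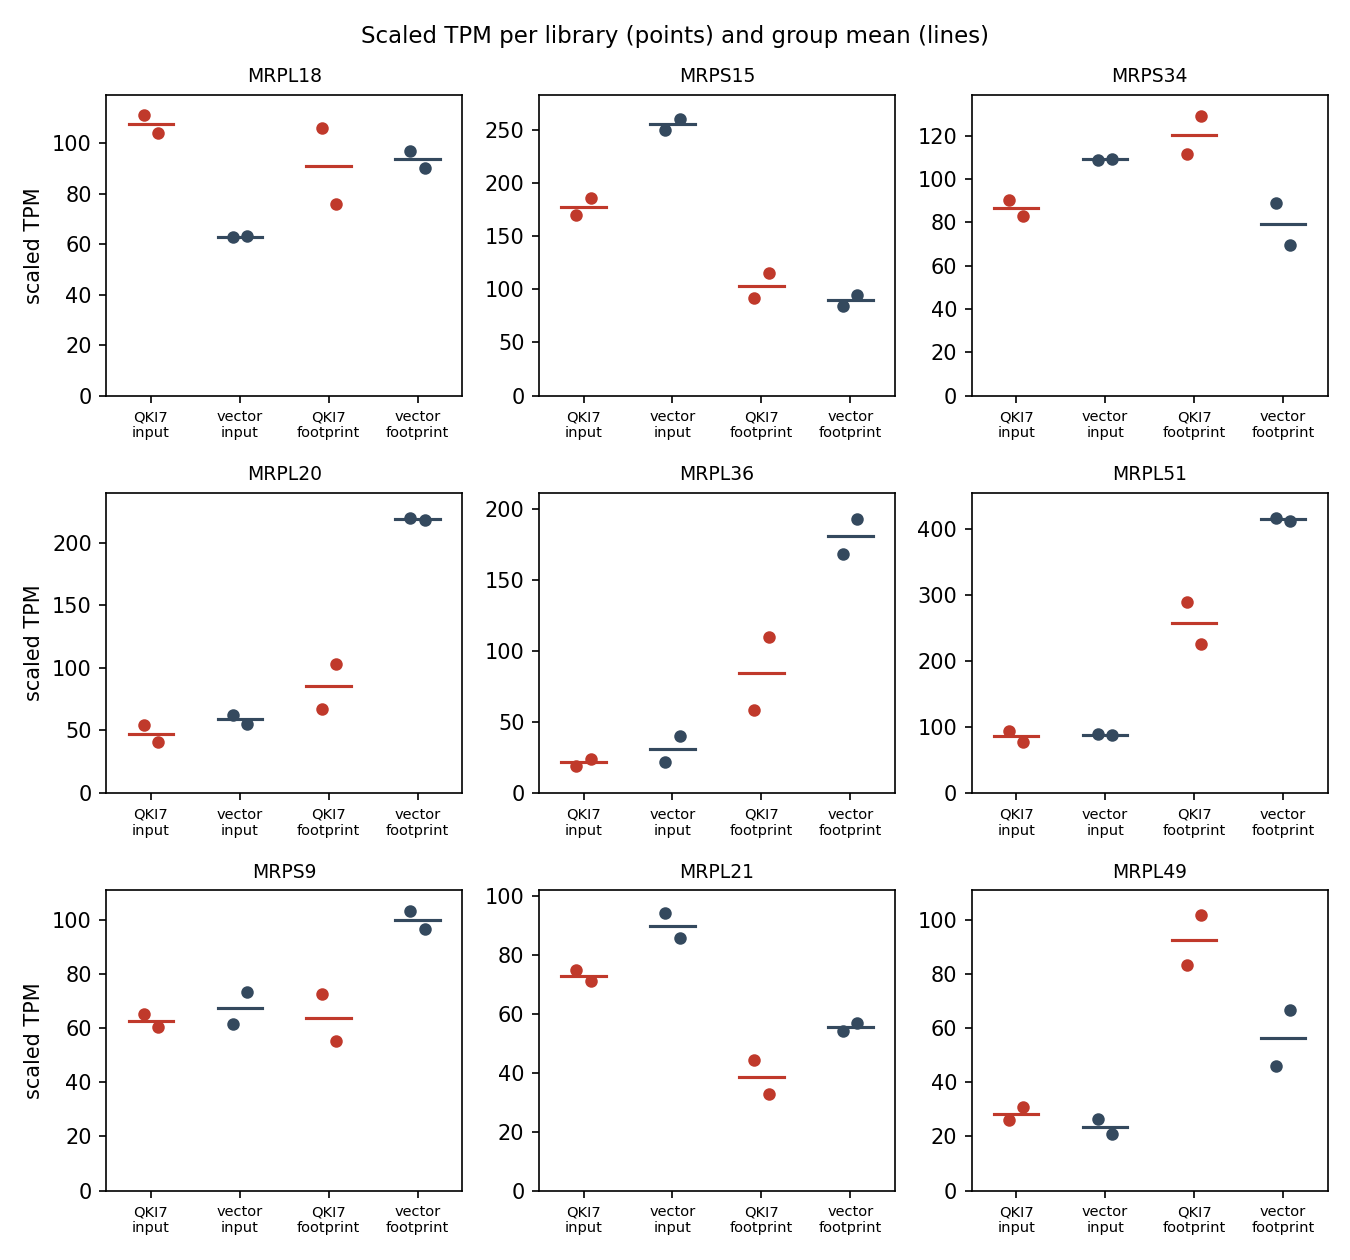
Scaled TPM in each library (points) and the mean of each group (lines), on linear axes from 0, for 9 MRP mRNAs. MRPL18 inputs and MRPL20 footprints separate QKI7 from vector libraries, at 111 and 104 against 62.7 and 63.1 and at 67.2 and 103 against 219.6 and 218 scaled TPM.

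In footprints 5 members fell in QKI7 cells (MRPL20, MRPL36, MRPL51, MRPL21 and MRPS9) and 2 rose (MRPL49 and MRPS34). Of all genes tested, 13.7% were called lower and 17.1% higher. At an unadjusted p under 0.05 in limma, 6 members were lower and 5 higher (20.1% and 22.3% of all genes). The members' median log2 difference was -0.16, beside -0.02 over all genes tested. Of the 7 calls, that of MRPL20 alone held in the type-weighted fit, which called 4.37% of all genes lower and 9.63% higher. The number of members called changed with the library left out. The members' median less that of all genes then lay between -0.191 and -0.0447. QKI7 and vector footprints did not overlap for 17 of the 44, with 5 above and 12 below in QKI7, and 28.9% and 30.7% of all genes did so.

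MRPL20, whose bacterial homologue is needed early in large-subunit assembly, had 67.2 and 103 scaled TPM in QKI7 footprints, against 219.6 and 218 in vector footprints. Both QKI7 libraries were below both vector libraries. The log2 difference was -1.38 (SE 0.22, limma adjusted p = 0.00285, and 0.0272 in the type-weighted fit), and it stayed past the threshold in 9 of 10 other settings and in all 8 fits that left out 1 library. It was lost when looser minimum levels and type weights were combined (limma adjusted p = 0.0790). Its inputs were at 54.2 and 40.4 scaled TPM in QKI7 cells, against 62.7 and 54.9 in vector cells. The MRPL20 gene (chromosome 1, 1401909 to 1407293, GRCh38.p14) overlaps MRPL20-AS1, an antisense RNA, and the pseudogene RN7SL657P, and strand use in the authors' counting is not given by the labels.

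MRPL51, a large-subunit protein without a bacterial homologue, had 289.9 and 226 scaled TPM in QKI7 footprints, against 417 and 413 in vector footprints. The groups did not overlap, while its inputs were at 94.6 and 77.1 scaled TPM in QKI7 cells and 90.0 and 87.2 in vector cells. The footprint difference was -0.70 on the log2 scale (SE 0.14, limma adjusted p = 0.00880). The call held on leaving out each library and was lost in the type-weighted fit (adjusted p = 0.0712).

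MRPL36, a small protein added late to the large subunit in bacteria, had 58.3 and 110.2 scaled TPM in QKI7 footprints, against 169 and 193 in vector footprints, with no overlap. The log2 difference was -1.16 (SE 0.35, limma adjusted p = 0.0363, and 0.215 in the type-weighted fit), and the call was lost without QKI7 footprint replicate 1 or either vector footprint. Its gene overlaps NDUFS6, a subunit gene of respiratory complex I.

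MRPS9, a small-subunit protein close to the bound transfer RNA in bacteria, had 72.5 and 55.1 scaled TPM in QKI7 footprints, against 103 and 96.5 in vector footprints (log2 difference -0.65, SE 0.17, limma adjusted p = 0.0221, and 0.110 in the type-weighted fit). This call was lost without QKI7 footprint replicate 2 or vector footprint replicate 1, and the gene overlaps the antisense RNAs MRPS9-AS1 and MRPS9-AS2. MRPL21 had 44.2 and 32.7 scaled TPM in QKI7 footprints, against 54.1 and 57.0 in vector footprints (log2 difference -0.53, SE 0.17, limma adjusted p = 0.0478, and 0.147 in the type-weighted fit). For both mRNAs each QKI7 footprint lay below each vector footprint, and the MRPL21 call was lost on leaving out any library but QKI7 footprint replicate 1.

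MRPS34, a small-subunit protein gained in mitochondria, had 111 and 129 scaled TPM in QKI7 footprints, against 89.1 and 69.6 in vector footprints. The log2 difference was 0.60 (SE 0.15, limma adjusted p = 0.0187, and 0.0702 in the type-weighted fit), and the call was lost without QKI7 or vector footprint replicate 2. MRPL49, a large-subunit protein also gained in mitochondria, had 83.1 and 102 scaled TPM in QKI7 footprints, against 46.1 and 66.5 in vector footprints (log2 difference 0.72, SE 0.23, limma adjusted p = 0.0481, and 0.188 in the type-weighted fit). The groups did not overlap for either, and the MRPL49 call was lost without any library but vector footprint replicate 2. The MRPS34 gene overlaps EME2 and the MRPL49 gene overlaps SYVN1.

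Among the tested members, 4 of 28 large-subunit mRNAs fell and 1 rose in footprints, and 1 of 16 small-subunit mRNAs fell and 1 rose, against 13.7% lower and 17.1% higher among all genes. Of 26 members with a bacterial homologue, 4 fell and 0 rose (1 was higher at an unadjusted p under 0.05 in limma), with a median of -0.21. Of 18 mitochondria-specific members, 1 fell and 2 rose, with a median of 0.08. In the type-weighted fit 1 member of the 44 fell, MRPL20, and 0 rose (3 were higher at an unadjusted p under 0.05 in limma). The difference between these groups was not tested. Summed scaled TPM over all 77 members came to 7139 and 7361 in QKI7 footprints, against 8627 and 8177 in vector footprints, a ratio of 0.863. In inputs the sums were 2908 and 2958 in QKI7 cells, against 3192 and 3082 in vector cells, a ratio of 0.935. Without MRPL12 and MRPS15 these ratios were 0.854 in footprints and 0.977 in inputs.

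**Figure D3:**
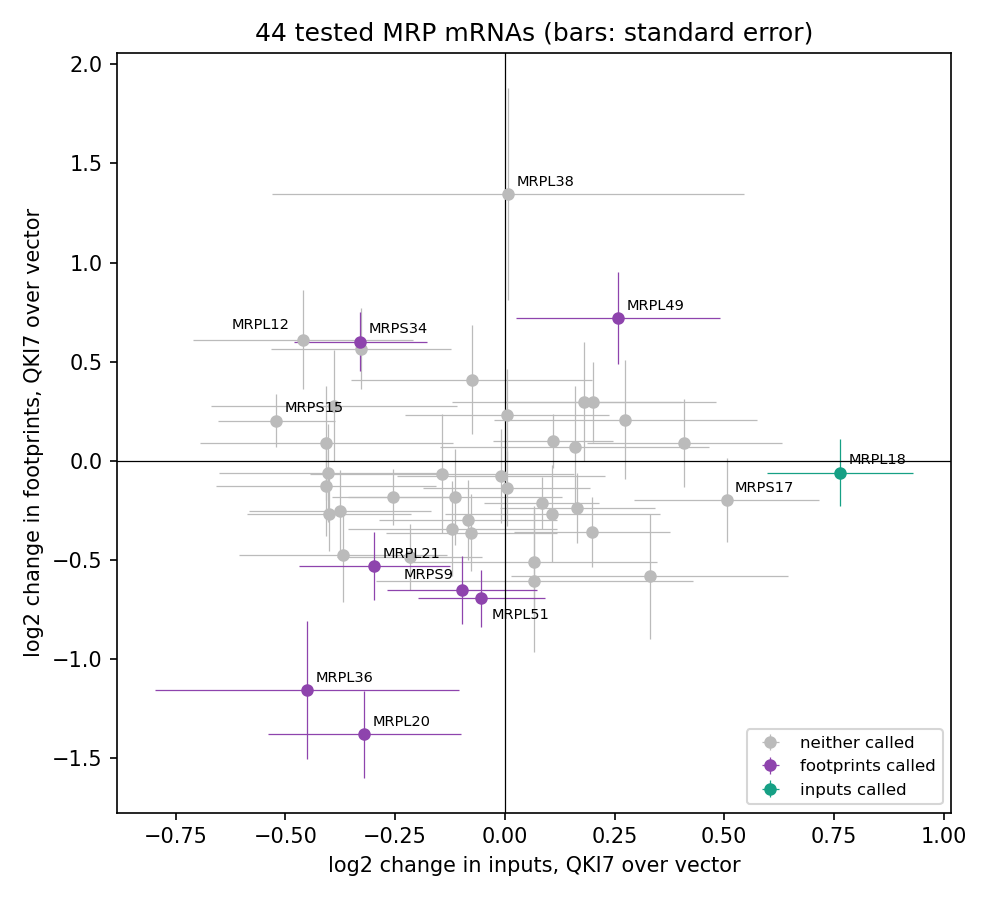
Log2 difference between QKI7 and vector cells in footprints (vertical) against that in inputs (horizontal) for the 44 tested MRP mRNAs, with bars of 1 standard error from the limma fit. MRPL20 and MRPL36 lie lowest at -1.38 and -1.16 in footprints, and MRPL18 lies farthest right at 0.76 in inputs.

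Members that fell below the minimum levels could be tested in part with looser ones, at means of 0.5 TPM in inputs and 0.05 TPM in footprints, where 65 members and 6948 genes were tested. That setting estimates the scaling anew and lowered the footprint difference of all 44 members tested before by nearly the same amount, with a median shift of -0.19 (range -0.195 to -0.177), so its counts depend on the scaling. In footprints 10 of the 65 fell and 0 rose, while 11.6% of all genes were lower and 11.2% higher. In 2 settings chosen after seeing the data these levels were combined with other choices. With the looser minimum levels on the main scaling, 4 fell (MRPL20, MRPL51, MRPS9 and MRPS18B) and 1 rose (MRPS34), while 5.99% of all genes were lower and 16.8% higher. With type weights as well as the looser levels, 0 members were called, while 0.95% of all genes were lower and 1.86% higher.

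MRPS18B, 1 of 3 human proteins related to a single bacterial small-subunit protein, had 93.7 and 115 scaled TPM in QKI7 footprints, against 162 and 188 in vector footprints. On this scaling its log2 difference was -0.74 (limma adjusted p = 0.0358 with looser minimum levels, and 0.221 with type weights on the scaling of the looser levels). MRPS30 had 38.9 and 50.0 scaled TPM in QKI7 footprints, against 60.5 and 80.7 in vector footprints, a log2 difference of -0.65 that did not pass on this scaling (limma adjusted p = 0.0851 with looser minimum levels, against 0.0385 on the scaling estimated from them and 0.263 with type weights as well). In both, the QKI7 footprints lay below the vector footprints, while the inputs overlapped. MRPS18A, the related protein of the large subunit, had 67.2 and 36.2 scaled TPM in QKI7 footprints, against 84.3 and 58.6 in vector footprints, and these overlapped.

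MRPS18C, the third of these related proteins, was too low in inputs to be tested even so, at 0.32 and 0.50 TPM in QKI7 inputs and 0.33 and 0.32 TPM in vector inputs. Its footprints were among the highest of all members, at 246 and 291 scaled TPM in QKI7 libraries, against 353 and 415 in vector libraries. The QKI7 footprints lay below the vector footprints. Its gene overlaps ABRAXAS1. MRPS36, which is not a mitoribosome protein, had 38.9 and 53.4 scaled TPM in QKI7 footprints, against 30.2 and 53.8 in vector footprints, and these overlapped.

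Translation efficiency, here the difference between QKI7 and vector cells in log2 footprints over input, was the question named in the study's title. In this interaction test 2 members rose, MRPS34 and MRPS15, and 0 fell, while 9.48% of all genes tested were called higher and 2.98% lower. At an unadjusted p under 0.05 in limma, 4 members were higher and 5 lower (19.5% and 11% of all genes). The members' median was -0.08, beside 0.05 over all genes tested. The type-weighted fit called the same 2 higher and MRPL18 lower (log2 difference -0.82, adjusted p = 0.0463, against 0.0583 with a shared spread), with 8.89% of all genes called higher and 2.54% lower. The number of members called changed with the library left out, and the members' median less that of all genes then lay between -0.271 and -0.0653.

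For MRPS34 the inputs were at 90.3 and 83.0 scaled TPM in QKI7 cells, against 109 and 109 in vector cells, and the footprints, given above, ran the other way. Its efficiency difference was 0.93 on the log2 scale (SE 0.21, limma adjusted p = 0.0253, and 0.0244 in the type-weighted fit). For MRPS15 the footprints were at 91.9 and 115 scaled TPM in QKI7 cells, against 84.3 and 95.0 in vector cells, and these overlapped while the inputs did not. Its efficiency difference was 0.72 (SE 0.19, limma adjusted p = 0.0427, and 0.0458 in the type-weighted fit). Both calls were lost on leaving out any 1 of the 4 inputs, and that of MRPS15 also without QKI7 footprint replicate 2 or vector footprint replicate 1. Both were also lost with looser minimum levels (limma adjusted p = 0.0790 for MRPS34 and 0.113 for MRPS15), and with these on the main scaling MRPS34 passed and MRPS15 did not (limma adjusted p = 0.0477 and 0.0717).

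The sizes of 3 other efficiency differences were larger but did not pass. MRPL38 was at 1.34 (SE 0.76, limma adjusted p = 0.275), with footprints of 54.8 and 86.1 scaled TPM in QKI7 cells, against 12.7 and 53.8 in vector cells, and it was 0.34 without vector footprint replicate 1 and 2.34 without vector footprint replicate 2 (limma adjusted p = 0.00764 without replicate 2). MRPL12 was at 1.07 (SE 0.36, limma adjusted p = 0.0849), with footprints of 122 and 114 scaled TPM in QKI7 cells, against 57.3 and 103 in vector cells. MRPL20 was at -1.06 (SE 0.31, limma adjusted p = 0.0621, and 0.0913 in the type-weighted fit). MRPL12 passed without vector footprint replicate 2 (1.49, limma adjusted p = 0.00862) and MRPL20 without QKI7 footprint replicate 2 (-1.37, limma adjusted p = 0.0196).

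The remaining comparison set footprints against inputs within each construct. On scaled TPM, which is relative to the typical protein-coding mRNA of a library, most tested MRP mRNAs stood higher in footprints than in inputs. In QKI7 cells 29 of 44 were called higher and 3 lower (median 1.04 on the log2 scale), while 37.6% of all genes tested were called higher and 38.2% lower (median 0.01). In vector cells 30 were called higher and 7 lower (median 1.16), while 39.2% of all genes were called higher and 40.5% lower (median -0.02). Related families had higher medians. Of 73 cytosolic ribosomal protein mRNAs, 69 were higher and 3 lower in QKI7 cells (median 2.90), and 67 and 4 in vector cells (2.73). Of 46 nuclear respiratory chain subunits (ATP synthase included), 41 were higher and 1 lower in each construct (medians 2.20 in QKI7 and 2.63 in vector cells). The direction was thus not particular to MRPs, and differences between families were not tested. On deposited TPM, where footprints of protein-coding mRNAs are a smaller share of the library, 1 member was higher and 32 lower of 35 tested in QKI7 cells, where 7.42% of all entries were higher and 90.8% lower. In vector cells 2 were higher and 28 lower on that scale, where 7.7% of all entries were higher and 89.9% lower, so the members' direction holds only relative to other mRNAs. The type-weighted fit on scaled TPM called 29 higher and 4 lower in QKI7 cells (37.2% and 38.6% of all genes) and 31 higher and 8 lower in vector cells (39% and 40.7% of all genes).

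Calls were shared between constructs for 26 members that were higher and 3 that were lower. The lower ones were MRPS15, MRPL21 and MRPS25, the last named after its values were seen. How many of all genes shared calls was not computed, so these counts cannot be set against a background. On the scaling of the looser minimum levels, none of the 3 lower members stayed below 0 in both constructs. There MRPS15 was at 0.032 in QKI7 cells and -0.58 in vector cells, MRPL21 at -0.12 and 0.24, and MRPS25 at 0.057 and 0.24. MRPS34 alone was called in opposite directions, at 0.47 in QKI7 cells (limma adjusted p = 0.0204) and -0.46 in vector cells (limma adjusted p = 0.0197), and both calls held in the type-weighted fit (adjusted p = 0.0171 and 0.0165). With looser minimum levels it was called higher in both, at 1.28 in QKI7 cells and 0.46 in vector cells. By the mean of both constructs, the highest of the tested members were MRPL13, MRPS17, MRPS28 and MRPL14. The lowest of the tested members were MRPS15, MRPL12, MRPS26 and MRPL21. Members below the minimum levels were left out of this ranking. With the looser minimum levels on the main scaling, MRPS5 was at -1.62 in QKI7 cells and -1.91 in vector cells, below all those named. MRPL52 was at 3.32 in QKI7 cells and 3.33 in vector cells, above MRPS17, MRPS28 and MRPL14 in both. MRPS18B was at 2.61 in QKI7 cells and 3.51 in vector cells, above MRPS17 and MRPL14 in both. MRPS18C was too low in inputs for either setting. Its ratio of mean footprint to mean input in scaled TPM was 32.7 in QKI7 cells and 54.2 in vector cells, against 10.7 and 12.3 for MRPL13.

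MRPL13, a large-subunit protein with a bacterial homologue, had 249 and 207 scaled TPM in QKI7 footprints, against 19 and 23.6 in QKI7 inputs, and 305 and 256 in vector footprints, against 19 and 26.6 in vector inputs. Its log2 footprint-over-input values were 3.36 in QKI7 cells and 3.58 in vector cells (SE 0.20 each). Those of MRPS17 were 2.47 and 3.18 in QKI7 and vector cells, those of MRPS28 were 2.85 and 2.78, and those of MRPL14, which lies where the subunits meet, were 2.18 and 2.74. In each of these 4 mRNAs every footprint library lay above every input. On deposited TPM, where most entries were lower in footprints, MRPS17, MRPS28 and MRPL14 turned to -0.42, -0.16 and -0.52 in QKI7 cells, and MRPS28 and MRPL14 to -0.040 and -0.059 in vector cells.

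At the other end, MRPS15 was at -0.78 in QKI7 cells (limma adjusted p = 0.000673) and -1.50 in vector cells (limma adjusted p = 8.58e-06). MRPL12 was at -0.46 in QKI7 cells (limma adjusted p = 0.124) and -1.53 in vector cells (limma adjusted p = 0.000477). The QKI7 values of MRPL12 and MRPS26 passed without either vector footprint library, at limma adjusted p between 0.00674 and 0.0234, and the vector value of MRPL21 was lost without vector input replicate 1 (limma adjusted p = 0.0501). MRPS26, gained in mitochondria, was at -0.49 and -1.38 in QKI7 and vector cells, and MRPL21 at -0.92 and -0.68. The looser minimum levels, through their own scaling, raised these values for all 44 members by nearly the same amount, by a median of 0.81 in QKI7 cells and 0.92 in vector cells. The sign of negative values smaller in size than this shift therefore depends on the scaling, also where they were called. MRPS15 and MRPL12, the highest members in inputs, were thus among the lowest tested members in footprints over input. The measure contains the input level itself.

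**Figure D4:**
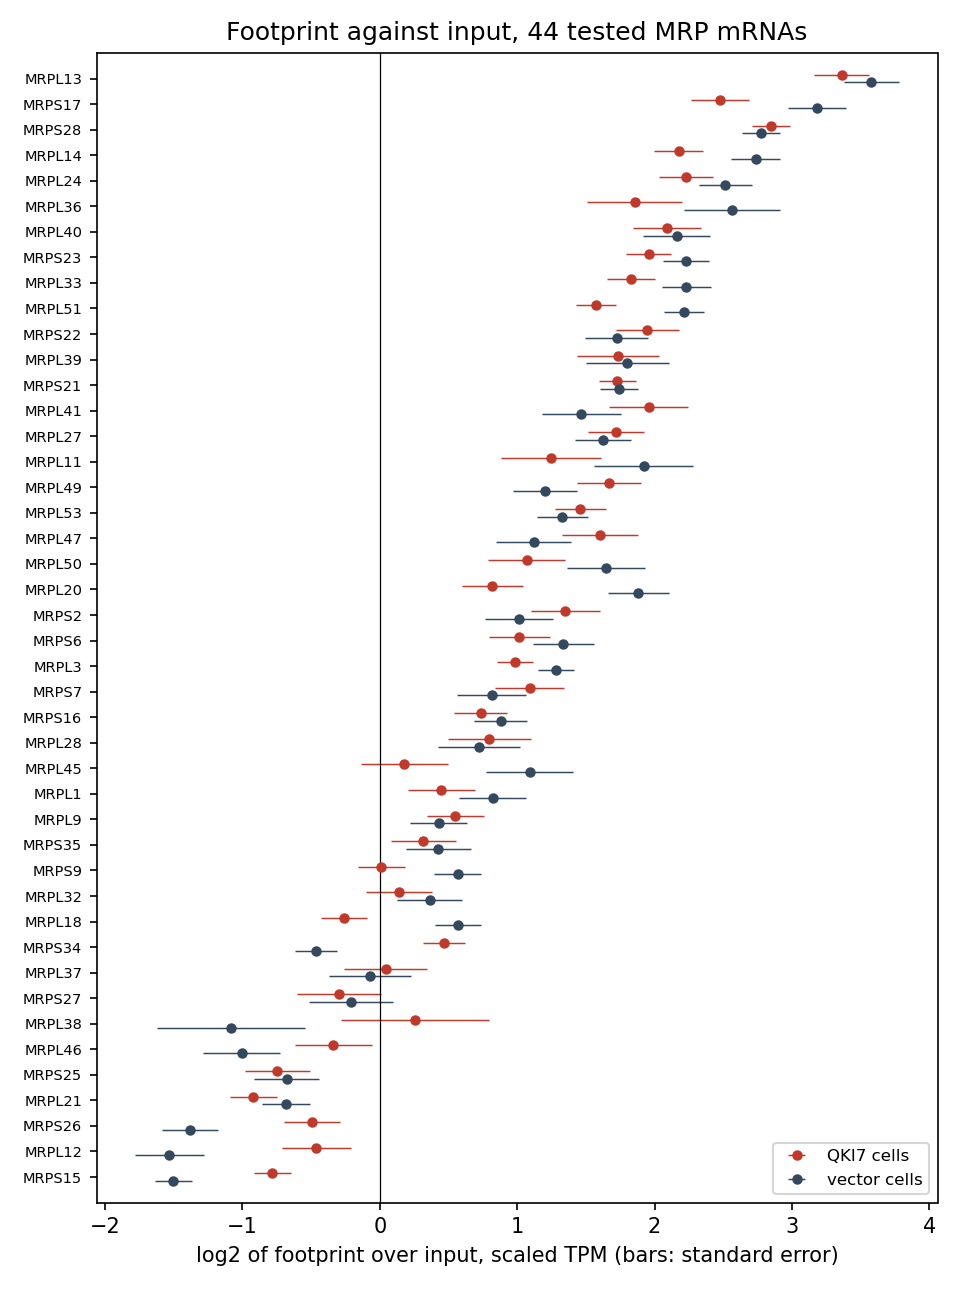
Log2 of footprint over input in scaled TPM for the 44 tested MRP mRNAs, in QKI7 cells (red, upper point of each pair) and vector cells (blue), with bars of 1 standard error, ordered by the mean of both. Values run between -0.92 and 3.36 in QKI7 cells and between -1.53 and 3.58 in vector cells, and MRPS34 lies on opposite sides of 0 on this scaling, but above 0 in both with looser minimum levels.

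Mitoribosome proteins whose symbols fall outside the rule gave 2 calls in footprints among 4 tested, 1 in each direction (17.1% of all genes were higher and 13.7% lower). In footprints the type-weighted fit gave 0 (1 was higher at an unadjusted p under 0.05 in limma). In inputs 0 of the 4 were called, with a median of -0.50. The type-weighted fit called 2 lower and 0 higher in inputs, with 16.4% and 8.45% of all genes. These were GADD45GIP1 (log2 difference -0.77, adjusted p = 0.00966) and AURKAIP1 (log2 difference -0.46, adjusted p = 0.0288, named after its value was seen). GADD45GIP1, a large-subunit protein also known as CRIF1, had 117 and 93.0 scaled TPM in QKI7 footprints, against 44.5 and 64.9 in vector footprints, and was higher by 0.94 on the log2 scale (SE 0.24, limma adjusted p = 0.0190, and 0.123 in the type-weighted fit). Its inputs were at 43.0 and 40.8 scaled TPM in QKI7 cells, against 86.2 and 60.2 in vector cells, and its efficiency rose by 1.71 (limma adjusted p = 0.0153, and 0.0297 in the type-weighted fit). ICT1, a peptidyl-tRNA hydrolase built into the large subunit, fell in footprints (log2 difference -0.79, limma adjusted p = 0.0370, and 0.276 in the type-weighted fit).

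Of 6 tested assembly factors of the mitoribosome, 3 rose in footprints and 0 fell (1 was lower at an unadjusted p under 0.05 in limma), while 17.1% of all genes were higher and 13.7% lower. The type-weighted fit called 2 of them higher (MTG1 and METTL17), with 9.63% of all genes higher. MTG1, a GTPase of large-subunit assembly, had 51.3 and 74.1 scaled TPM in QKI7 footprints, against 22.3 and 25.3 in vector footprints (log2 difference 1.34, SE 0.20, limma adjusted p = 0.00203, and 0.0133 in the type-weighted fit). METTL17, a factor of small-subunit assembly, rose by 0.89 (limma adjusted p = 0.00377, and 0.0171 in the type-weighted fit), and DHX30, a helicase, rose by 0.76 (limma adjusted p = 0.0278, and 0.0788 in the type-weighted fit).

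Of 7 tested mitochondrial translation factors and proteins that handle mitochondrial mRNA, 1 fell in inputs and in footprints and 0 rose in either (none was higher at an unadjusted p under 0.05 in limma). Among all genes 5.77% were lower in inputs and 13.7% in footprints. The type-weighted fit also called MTIF2 higher in inputs (log2 difference 0.35, adjusted p = 0.0272, named after its value was seen). The member that fell was SLIRP, which protects mitochondrial mRNAs together with LRPPRC. It had 1130 and 1025 scaled TPM in QKI7 footprints, against 2008 and 1883 in vector footprints (log2 difference -0.85, SE 0.09, limma adjusted p = 0.000468, and 0.00863 in the type-weighted fit). Its inputs were at 102 and 101 scaled TPM in QKI7 cells, against 143 and 164 in vector cells (log2 difference -0.58, limma adjusted p = 0.00554, and 0.000401 in the type-weighted fit). The groups did not overlap in either library type.

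Cytosolic ribosomal protein mRNAs, the cytosolic counterpart of the MRPs, gave more calls in the same fit. In inputs 47 of 73 fell and 0 rose (none was higher at an unadjusted p under 0.05 in limma), with a median of -0.48, beside -0.08 for the 44 MRPs, and 5.77% of all genes were lower. In footprints 55 of 73 fell and 1 rose, with a median of -0.36, beside -0.16 for the MRPs, and 13.7% of all genes were lower and 17.1% higher. In translation efficiency 15 of 73 rose and 5 fell, with a median of 0.09, beside -0.08 for the MRPs. Of all genes 9.48% were higher and 2.98% lower in efficiency. The type-weighted fit called 58 lower in inputs (16.4% of all genes) and 28 lower and 1 higher in footprints (4.37% and 9.63% of all genes). In efficiency it called 12 higher and 2 lower (8.89% and 2.54% of all genes). The difference between the families was not tested.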

How the data were processed

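The authors deposited TPM per gene for 8 libraries, given to 2 decimals and without counts. Per the submitters' processing notes, STAR and RSEM 1.2.31 were used with GRCh38. Reads were single-end, 51 nucleotides long, per the labels' protocols. How multi-mapping reads of paralogues and pseudogenes were shared was not tested.

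Symbols were matched to RefSeq (GRCh38.p14): 23970 entries by symbol, 1388 by an older symbol and 1544 not at all, and 18772 were protein-coding. Protein-coding TPM were rescaled to a common sum and divided by a median-of-ratios factor. Log2(scaled TPM + 1) was fitted with limma 3.58.1 (R 4.3.3), with 4 group means, a mean-variance trend and 4 residual degrees of freedom. A fold change on this scale understates the change of low genes. Scripts were tested on simulated data with known changes, in which the shared spread gave more false calls among footprints than among inputs. The type-weighted fit was added for that reason.

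Named members were the 5 largest called changes per direction (or, with fewer than 3 calls, also the 3 largest changes). They included the 4 highest and 4 lowest tested members in footprint over input, and the 5 highest and 5 lowest of all members in inputs. MRPL12, MRPS12, MRPS18A, MRPS18B, MRPS18C, MRPS30 and MRPS36 were named as well. Members, lists and tests were chosen with earlier results of these data known. Deviations of equally numbered libraries from their group means correlated between -0.0596 and 0.0255. With 2 libraries a group, these values cannot decide whether equal numbers share a culture.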

Additional observations from a re-analysis of the deposited data

Results flagged for a closer look

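Footprint over input differed between QKI7 and vector cells for MRPS15 and MRPS34, by the interaction test in limma. For MRPS15 the value was -0.78 in QKI7 cells and -1.50 in vector cells, a difference of 0.72 on the log2 scale. For MRPS34 it was 0.47 in QKI7 cells and -0.46 in vector cells, a difference of 0.93. With looser minimum levels, which shift both constructs' values upward, MRPS34 was at 1.28 in QKI7 cells and 0.46 in vector cells, and neither difference passed (limma adjusted p = 0.0790 for MRPS34 and 0.113 for MRPS15). No group held 4 or more libraries, so single libraries were not screened for outliers.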

How the results depend on the processing

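Counts below are of members called higher and lower, with the shares of all genes called in the same setting in brackets, and medians are the members' median log2 difference less that of all genes tested. The deposited scale (log2(deposited TPM + 1), 35 members tested) gave 3 higher and 1 lower in inputs (39.1% and 5.48%, median -0.117), 0 and 3 in footprints (3.6% and 4.6%) and 1 and 5 in efficiency (3.57% and 21.6%). It gave 1 and 32 in footprint against input in QKI7 cells (7.42% and 90.8%, median 0.79) and 2 and 28 in vector cells (7.7% and 89.9%, median 0.85). Equal sums, with no median-of-ratios factor, gave 1 lower in inputs (7.86%), 1 higher in footprints (13.9%), 1 higher and 1 lower in efficiency (8.31% and 3.71%), and 9 lower in footprint against input in QKI7 cells (50.1%). The looser minimum levels gave 0 higher in inputs (0.115%), 0 higher and 10 lower in footprints (11.2% and 11.6%, median -0.34) and 0 higher in efficiency (3.21%, median -0.32). They gave 55 higher and 1 lower in footprint against input in QKI7 cells (32.9% and 32%, median 2.12) and 55 and 2 in vector cells (34.6% and 34.9%, median 2.45). Stricter ones (26 members tested) gave an input median of -0.0018, 1 higher and 3 lower in footprints (15.6% and 13.6%), 1 lower in efficiency (5.02%), 16 higher and 5 lower in footprint against input in QKI7 cells (41.3% and 42.4%, median 0.68) and 15 higher in vector cells (41.8%, median 0.73). A pseudocount of 5 moved the vector median of footprint against input to 1.08. The causes were not tested beyond the scaling and the number of genes each setting kept.

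Of 4 settings chosen after seeing the data, the type-weighted fit gave 2 higher and 4 lower in inputs (8.45% and 16.4%), 0 and 1 in footprints (9.63% and 4.37%), and 1 lower in efficiency (2.54%). Separate fits of inputs and footprints gave 2 higher and 6 lower in inputs (9.3% and 17.6%) and 0 and 3 in footprints (7.9% and 7.86%). The looser minimum levels on the main scaling gave 0 higher in inputs (0.187%), 1 higher in footprints (16.8%, median -0.33) and 1 higher in efficiency (4.76%, median -0.31). They gave 46 higher in footprint against input in QKI7 cells (20.1%, median 2.13) and 47 in vector cells (21.3%, median 2.42). The looser levels with type weights gave 3 higher and 12 lower in inputs (5.73% and 12.8%), 0 and 0 in footprints (1.86% and 0.95%, median -0.34) and 0 higher in efficiency (1.67%, median -0.32). They gave 51 higher and 1 lower in footprint against input in QKI7 cells (31.7% and 32.4%, median 2.12) and 55 and 2 in vector cells (34% and 35.4%, median 2.45).

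With the replicate number as a block, 1 member was lower in inputs (MRPS15, limma adjusted p = 0.0391, with 5.37% of all genes) and 1 higher in footprints (15.6%), where the calls of MRPL49 (0.0530) and MRPL21 (0.0555) were lost. With each culture as a replicate block, 1 member was lower in efficiency (2.35%). The labels do not say that equal numbers pair the libraries.

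Without each library in turn, medians lay between -0.0653 and 0.0027 in inputs. They lay between -0.191 and -0.0447 in footprints and between -0.271 and -0.0653 in efficiency. For footprint against input they lay between 0.898 and 1.13 in QKI7 cells and between 1.09 and 1.26 in vector cells. The counts of calls changed with the library left out. Each of these fits left 1 library in a group, so the counts are left out here.

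Footprint against input changed sign on the deposited scale, among the named members, for MRPS17 (-0.42), MRPS28 (-0.16) and MRPL14 (-0.52) in QKI7 cells and for MRPS28 (-0.040) and MRPL14 (-0.059) in vector cells. With the looser minimum levels 7 of 44 members changed sign in QKI7 cells and 5 in vector cells, and the scaling moved all 44 by nearly the same amount, by medians of 0.81 and 0.92. Of the highest and lowest tested members, those that changed sign in QKI7 cells were MRPS15 (0.032), MRPL12 (0.35) and MRPS26 (0.32). In vector cells MRPL21 (0.24) alone changed sign, and all these values were the same under type weights. With the main scaling kept, none of these highest or lowest tested members changed sign under the looser levels. With 2 libraries a group, unknown depth and footprint levels mostly under 1 TPM, small differences could not be resolved.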

Other observations

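Subunits of the respiratory chain, whose mitochondrially encoded partners are made by the mitoribosome, were tested for 46 nuclear genes. The list was drawn by symbol and includes genes of the ATP synthase, among them ATP5B and ATP5H. In inputs 10 fell and 0 rose (2 were higher at an unadjusted p under 0.05 in limma), with a median log2 difference of -0.11, while 5.77% of all genes were lower and 1.32% higher. The type-weighted fit called 14 lower and 1 higher (ATP5B) in inputs, with 16.4% and 8.45% of all genes. UQCR10, a subunit of complex III, had 25.9 and 26.6 scaled TPM in QKI7 inputs, against 59.0 and 51.8 in vector inputs (log2 difference -1.04, SE 0.11, limma adjusted p = 0.000824, and 3.53e-05 in the type-weighted fit). COX6A1, a subunit of complex IV, fell in inputs (log2 difference -0.73, limma adjusted p = 0.000974, and 3.53e-05 in the type-weighted fit) and in footprints (log2 difference -0.82, limma adjusted p = 0.000306, and 0.00373 in the type-weighted fit). In footprints 14 of the 46 fell and 2 rose, with a median of -0.22, while 13.7% of all genes were lower and 17.1% higher. The type-weighted fit called 3 lower (COX6A1, ATP5H and NDUFB9) and 0 higher in footprints (1 was higher at an unadjusted p under 0.05 in limma), with 4.37% of all genes lower. ATP5B, ATP5H and NDUFB9 are named after their values were seen.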
